A study of Mus musculus with 12 samples.

Results

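Cholesterol is made in the liver from acetyl-CoA by a chain of enzymes that is under the control of SREBP2, and 31 genes of this pathway were followed here in 12 mouse livers profiled by bulk RNA sequencing. They were taken by gene symbol from a count table of 27304 genes. There are 20 enzymes of synthesis, 6 genes of SREBP2 and its processing, and 5 genes of cholesterol esterification and intracellular transport. All 31 were in the table, and all 31 were among the 13641 genes that passed the filter on low counts.

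The series asks what AhR does in the liver. AhR, the aryl hydrocarbon receptor, is a transcription factor switched on by dioxins and by indoles from food and gut microbes. Livers came from Apoe-/-AhR-/- mice, called Ahr-null here, and from Apoe-/- mice, called controls, with 3 males and 3 females of each genotype. Mice of all 4 groups lacked Apoe, the apolipoprotein through which lipoprotein remnants are cleared, and all were fed a high-fat diet (HFD) for 12 weeks before being perfused with saline and dissected, so no group is a wild-type liver on ordinary chow. The cholesterol content of the diet, the design of the Ahr allele and the age of the mice when feeding began were not given in the sources used here. The 12 samples are listed separately and are treated as separate livers, so a p-value speaks only to the scatter among them.

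SREBP2, encoded by Srebf2, is made as a membrane protein of the endoplasmic reticulum. When sterols are scarce the escort protein SCAP carries it to the Golgi, where a pair of proteases release the part that enters the nucleus and activates the genes of cholesterol synthesis and uptake. When sterols are plentiful, INSIG proteins hold SCAP and SREBP2 in the endoplasmic reticulum, so a liver well supplied with cholesterol keeps its synthesis genes low. Insig1 and Srebf2 are themselves among the genes that SREBP2 activates.

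Libraries held 9794253 to 18924880 counts. Levels are in CPM, counts scaled to a library of 1000000, in which a single count weighed at most 0.102 before scaling factors, and the 13 protein genes of the mitochondrial genome took 30.4% to 69.8% of the counts. The average RNA integrity number given with the series was 7.0. The AhR target Cyp1a2 lay at 47.0 to 217 CPM in the Ahr-null livers, against 452 to 1170 CPM in the controls, with no overlap, while counts over the whole Ahr gene gave a difference of 0.13 ± 0.18 log2 units (SE; adjusted p = 0.800, edgeR); such counts do not show a loss of single exons. Ahr-null female 1 stood apart from the rest. Its expression profile correlated at 0.805 and 0.811 with those of the other Ahr-null females, while every other pair of replicates reached at least 0.938. A list of 30 neural transcripts summed to 852 CPM in this liver and to 514 CPM in control male 1, and to between 73.8 and 183 CPM in the other 10 livers, so results are also given without these libraries where that matters.

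Averaged over the sexes, the genes of cholesterol synthesis lay higher in the Ahr-null livers than in the controls. Only 1 of them passed the test, and the rise was uneven between livers. The median log2 distance of the enzymes from the control mean of their sex was 1.58 in Ahr-null male 3. In Ahr-null female 1 it was 1.63. It was 0.13 to 0.44 in the other Ahr-null livers, and 0.52 in control female 2. All 20 enzymes of synthesis had a positive log2 fold change (Ahr-null minus control), with a median of 0.91 and a range of 0.14 to 1.89. Across the 31 genes the median was 0.65, against 0.037 over all genes tested, and 28 of the 31 were positive. With the edgeR quasi-likelihood test and Benjamini-Hochberg adjustment over all genes tested, Mvd alone rose (adjusted p = 0.0287) and 0 of the 31 fell. Over all genes tested, 0.528% were called higher and 0.528% lower (1.06% in all). At an unadjusted p under 0.05 in the same edgeR fit there were 14 of the 31 (45.2%), against 15.3% of all genes tested. The 31 genes were chosen with earlier results of these data known, and many of them peaked in the same livers. Their p-values are thus not independent of one another, and this share is a description only. DESeq2 called 6 (Mvd, Mvk, Lss, Cyp51, Sc5d and Dhcr7), where it called 4.9% of all genes. Limma-voom (0.872% of all genes called) and limma on the deposited variance-stabilised values (1.24%) each called 1, Mvd. Within edgeR, scaling by library size alone called 16 (7.72% of all genes), and 2 genes, Mvd and Dhcr7, were called with TMM computed without mitochondrial genes (1.11%), with a filter of at least 1 CPM in 3 libraries (1.19%) and without robust fitting (1.12%). In whole liver, a change in the share of a cell type and a change in RNA per cell cannot be told apart.

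**Figure D1:**
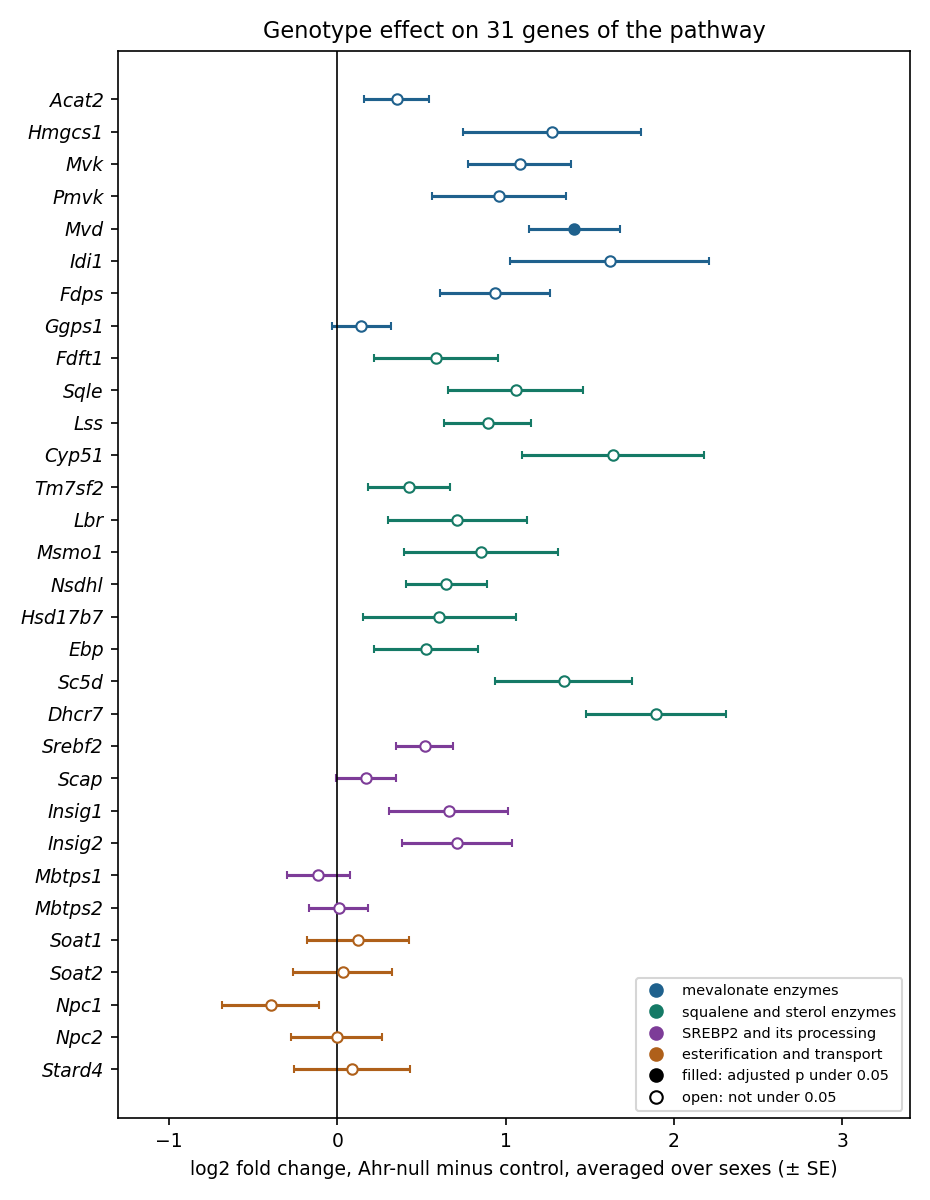
Log2 fold change of each of the 31 genes, Ahr-null minus control averaged over the sexes, with its standard error, grouped by role from mevalonate enzymes at the top to esterification and transport at the bottom. All 20 enzymes of synthesis lie right of 0, and Mvd is the filled point, the call at an adjusted p under 0.05.

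The 8 enzymes from acetyl-CoA to the long isoprenoid diphosphates had a median log2 fold change of 1.02, with 1 called higher and 6 at an unadjusted p under 0.05 in the edgeR fit (15.3% of all genes). Mvd, on the minus strand at chr8:122433601-122443422 (GRCm38), encodes the decarboxylase that turns mevalonate diphosphate into isopentenyl diphosphate, the building block of all isoprenoids. It had 13.1, 12.7 and 30.7 CPM in Ahr-null males, against 5.30, 5.73 and 7.14 CPM in control males. In the other sex it had 15.5, 13.8 and 10.7 CPM in Ahr-null females, against 5.73, 8.29 and 3.66 CPM in control females. Every Ahr-null liver lay above every control liver, in both sexes, with Ahr-null male 3 far above the rest. Its group means were 18.8 ± 10.3 CPM in Ahr-null males and 6.06 ± 0.959 CPM in control males (SD, n = 3 each), and 13.3 ± 2.47 CPM in Ahr-null females and 5.89 ± 2.32 CPM in control females (SD, n = 3 each). The averaged test gave a difference of 1.41 ± 0.27 log2 units (SE; adjusted p = 0.0287, edgeR). The call was sensitive to single livers: it held without Ahr-null male 2, Ahr-null female 1 or Ahr-null female 3, and was lost without any single one of the other 9 livers, at edgeR adjusted p of up to 0.119, while the log2 fold change stayed between 1.14 and 1.56.

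Mvk encodes mevalonate kinase, which adds the first phosphate to mevalonate. Its levels were 7.42, 4.50 and 11.8 CPM in Ahr-null males, against 3.79, 4.18 and 4.97 CPM in control males. Females gave 16.4, 6.07 and 8.23 CPM in Ahr-null females, against 4.69, 5.24 and 2.58 CPM in control females. The groups did not overlap in females, while among males Ahr-null male 2 lay inside the control range. Over both sexes there was a difference of 1.08 ± 0.30 log2 units (SE; adjusted p = 0.117, edgeR), or 0.85 without Ahr-null female 1. Pmvk, the kinase of the next step, spanned 3.24 to 11.4 CPM in the Ahr-null livers (median 4.11), against 1.67 to 5.24 CPM in the controls (median 2.77), with a difference of 0.96 ± 0.40 log2 units (SE; adjusted p = 0.265, edgeR), or 0.55 without Ahr-null male 3.

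Hmgcs1, the cytosolic HMG-CoA synthase at the entry to the pathway, showed how unevenly the Ahr-null livers behaved; it and the other genes given liver by liver outside the 8 of the levels plot were chosen after their values were seen. It had 135, 76.8 and 411 CPM in Ahr-null males, against 80.1, 82.8 and 103 CPM in control males, and 526, 66.9 and 77.4 CPM in Ahr-null females, against 65.4, 121 and 82.0 CPM in control females. Ahr-null male 3 and Ahr-null female 1 were several times above every other liver, and the other 4 Ahr-null livers lay in or near the control range. The averaged test gave a difference of 1.27 ± 0.53 log2 units (SE; adjusted p = 0.267, edgeR), with 0.48 without Ahr-null female 1 and 0.79 without Ahr-null male 3. Idi1, the isomerase that makes the second isoprenoid building block, had the same 2 livers on top, with 10.7, 13.1 and 46.9 CPM in Ahr-null males, against 9.85, 8.44 and 8.03 CPM in control males. Among females it had 45.6, 3.07 and 6.07 CPM in Ahr-null females, against 4.0, 7.96 and 3.66 CPM in control females. The males did not overlap, and Ahr-null female 2 lay below all 3 control females. The test gave a difference of 1.62 ± 0.59 log2 units (SE; adjusted p = 0.210, edgeR), or 0.65 without Ahr-null female 1. Fdps, which makes farnesyl diphosphate, spanned 2.37 to 8.60 CPM in the Ahr-null livers (median 4.80), against 2.0 to 4.15 CPM in the controls (median 2.91), with a difference of 0.94 ± 0.33 log2 units (SE; adjusted p = 0.193, edgeR), or 0.64 without Ahr-null female 1. Acat2, the cytosolic thiolase that supplies acetoacetyl-CoA, spanned 32.3 to 65 CPM in the Ahr-null livers (median 45.9), against 34.6 to 40.4 CPM in the controls (median 37.3), and Ggps1, which leads off to geranylgeranylated proteins and not to sterols, spanned 6.43 to 10.4 CPM in the Ahr-null livers (median 8.56), against 6.24 to 8.83 CPM in the controls (median 7.40). Their log2 fold changes were 0.35 ± 0.20 and 0.14 ± 0.17 (SE), neither past the test, and Acat2 was at 0.22 without Ahr-null female 1.

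**Figure D2:**
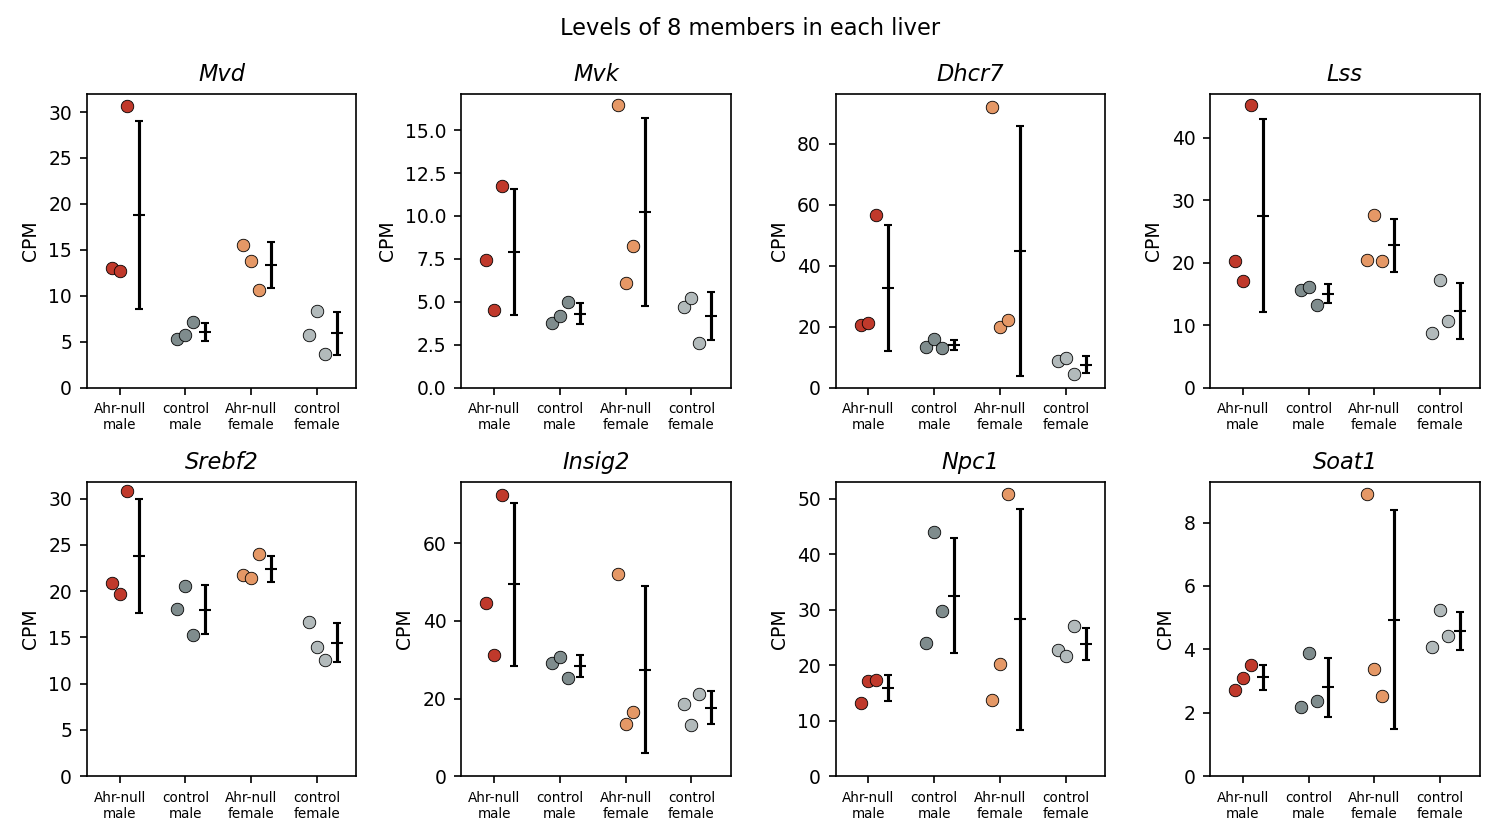
CPM of Mvd, Mvk, Dhcr7, Lss, Srebf2, Insig2, Npc1 and Soat1 in each liver (points), with the mean and SD of each group of 3 beside them and a separate axis for each gene. Mvd, Dhcr7 and Lss have every Ahr-null liver above every control liver of its sex, and the highest point of most panels is Ahr-null male 3 or Ahr-null female 1.

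The 12 enzymes from squalene to cholesterol had a median log2 fold change of 0.78, all 12 positive, 0 called and 6 at an unadjusted p under 0.05 in the edgeR fit (15.3% of all genes). The gene with the largest difference of all 31 was Dhcr7, which encodes the reductase that makes cholesterol from its dehydro precursor in the last step of synthesis, on the plus strand at chr7:143823145-143848410. It had 20.6, 21.2 and 56.6 CPM in Ahr-null males, against 13.3, 16.0 and 13 CPM in control males. Females showed 92.1, 20.0 and 22 CPM in Ahr-null females, against 8.56, 9.71 and 4.41 CPM in control females. All Ahr-null livers lay above all controls of their sex, and Ahr-null female 1 was the highest. The averaged test gave a difference of 1.89 ± 0.42 log2 units (SE; adjusted p = 0.0516, edgeR), just outside the threshold. It was inside the threshold without Ahr-null female 1, at 1.37 log2 units (adjusted p = 0.0188, edgeR, with 4.78% of all genes called), and without both libraries rich in neural transcripts, at 1.35 (adjusted p = 0.0396, edgeR, with 3.14%). It was also inside without Ahr-null male 2 (adjusted p = 0.0439, edgeR, with 1.99%). Without Ahr-null male 3 it was at 1.56 (adjusted p = 0.166, edgeR).

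Lss, lanosterol synthase, folds squalene epoxide into the first sterol. Its levels were 20.3, 17.1 and 45.2 CPM in Ahr-null males, against 15.6, 16.1 and 13.3 CPM in control males. Those of females were 20.4, 27.6 and 20.3 CPM in Ahr-null females, against 8.70, 17.2 and 10.7 CPM in control females. It was the third gene, after Mvd and Dhcr7, with no overlap in either sex, and the averaged test gave a difference of 0.89 ± 0.26 log2 units (SE; adjusted p = 0.134, edgeR), or 0.62 without Ahr-null male 3. Sc5d, a desaturase close to the end of the chain, had 88.8, 63.7 and 300.4 CPM in Ahr-null males, against 61.0, 80.2 and 60.2 CPM in control males. It had 320.0, 88.8 and 128 CPM in Ahr-null females, against 63.2, 77.9 and 45.9 CPM in control females. The females did not overlap, Ahr-null male 2 lay among the control males, and the test gave a difference of 1.35 ± 0.41 log2 units (SE; adjusted p = 0.148, edgeR), or 0.85 without Ahr-null male 3.

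Cyp51, the lanosterol demethylase, is the cytochrome P450 of the pathway. Its levels were 14.2, 9.38 and 54.0 CPM in Ahr-null males, against 5.98, 7.51 and 11.8 CPM in control males. In females they were 37.2, 6.56 and 7.35 CPM in Ahr-null females, against 4.62, 9.06 and 2.58 CPM in control females, with the groups overlapping in both sexes. Averaged over the sexes it differed by 1.64 ± 0.54 log2 units (SE; adjusted p = 0.177, edgeR), against 1.02 without Ahr-null female 1 and 1.07 without Ahr-null male 3. Sqle, squalene epoxidase, a known control point of the later pathway, spanned 4.80 to 21.1 CPM in the Ahr-null livers (median 7.50), against 2.97 to 8.51 CPM in the controls (median 4.39), with a difference of 1.06 ± 0.40 log2 units (SE; adjusted p = 0.225, edgeR); the male groups did not overlap, and the value was 0.58 without Ahr-null female 1. Fdft1, squalene synthase, the first step committed to sterols, spanned 16.6 to 69.1 CPM in the Ahr-null livers (median 24.5), against 14.7 to 33.2 CPM in the controls (median 21.6), with a difference of 0.59 ± 0.37 log2 units (SE; adjusted p = 0.488, edgeR). The Fdft1 value was 0.15 without Ahr-null male 3 and 0.36 without Ahr-null female 1. Of its exon bases, 18.3% overlap the opposite strand of Ctsb, so its counts are uncertain where reads were counted without strand.

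None of the remaining sterol enzymes passed the test. Msmo1 and Nsdhl, which with Hsd17b7 take methyl groups off the sterol ring, had log2 fold changes of 0.85 ± 0.46 and 0.65 ± 0.24 (SE), and Hsd17b7 had 0.61 ± 0.46 (SE). Msmo1 was at 0.36 without Ahr-null male 3 and 0.53 without Ahr-null female 1, and Nsdhl was at 0.46 without Ahr-null male 3. The value of Hsd17b7 was 0.024 without Ahr-null female 1 and 0.14 without Ahr-null male 3. Ebp, an isomerase of the sterol ring, had 0.53 ± 0.31 (SE), and 0.15 without Ahr-null female 1 or 0.32 without Ahr-null male 3. Tm7sf2 and Lbr encode a pair of reductases that can do the same step, Lbr being also a protein of the inner nuclear membrane, and they had 0.43 ± 0.24 and 0.71 ± 0.41 (SE). Tm7sf2 was at 0.15 without Ahr-null male 3, and Lbr at 1.23 without control female 2. Lbr was the least expressed of the 31 genes per kilobase of exon, with a lowest count of 3 in a library.

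Mvd and Hmgcs1 are shown by their promoters, the first because it was called and the second because it was the sole gene of the group whose window held the SREBP2 motif searched. Promoter windows of 300 bases, 250 before and 50 after the transcription start, came from RefSeq (GRCm38.p6) and were found for 25 of the 31 genes. Capitals mark CCAAT, the NF-Y box, or ATTGG where it lies on the other strand, and in Hmgcs1 also TCACCCCAC, a match to the sterol regulatory element TCACNCCAC. The Mvd window is chr8:122443373-122443672 on the minus strand and the Hmgcs1 window is chr13:119690101-119690400 on the plus strand.
Mvd: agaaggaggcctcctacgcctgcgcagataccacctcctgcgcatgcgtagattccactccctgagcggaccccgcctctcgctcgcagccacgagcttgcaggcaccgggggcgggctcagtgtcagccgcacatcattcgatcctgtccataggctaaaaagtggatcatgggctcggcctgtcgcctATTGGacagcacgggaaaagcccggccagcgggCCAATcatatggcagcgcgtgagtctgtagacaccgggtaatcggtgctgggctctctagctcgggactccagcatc
Hmgcs1: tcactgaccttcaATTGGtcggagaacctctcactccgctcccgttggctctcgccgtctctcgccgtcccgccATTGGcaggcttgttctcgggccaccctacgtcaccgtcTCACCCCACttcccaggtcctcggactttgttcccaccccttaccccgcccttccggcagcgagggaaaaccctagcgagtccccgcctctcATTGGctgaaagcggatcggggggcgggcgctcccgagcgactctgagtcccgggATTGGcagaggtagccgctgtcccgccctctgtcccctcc
In the Mvd window the NF-Y boxes begin 60 and 27 bases before the start. The Hmgcs1 window holds 4 of them, and its sterol element begins 137 bases before the start. Lss and Dhcr7, the other genes with no overlap in either sex, are shown next to them as genes chosen after their values were seen. The Lss window is chr10:76531355-76531654 on the plus strand, with an NF-Y box 62 bases before the start. Dhcr7 has 3 windows, and the only 1 with an NF-Y box is shown. It is chr7:143829964-143830263 on the plus strand, with boxes 85 and 49 bases before the start. This window lies inside the gene, downstream of those at chr7:143822917-143823216 and chr7:143823149-143823448, which hold no NF-Y box. Which start these livers use was not examined.
Lss: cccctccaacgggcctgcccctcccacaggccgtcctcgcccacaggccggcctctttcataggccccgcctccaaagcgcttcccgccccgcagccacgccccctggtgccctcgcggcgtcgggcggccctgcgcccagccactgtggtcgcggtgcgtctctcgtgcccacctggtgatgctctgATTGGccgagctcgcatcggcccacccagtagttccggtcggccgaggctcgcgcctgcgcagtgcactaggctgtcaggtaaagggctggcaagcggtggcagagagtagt
Dhcr7: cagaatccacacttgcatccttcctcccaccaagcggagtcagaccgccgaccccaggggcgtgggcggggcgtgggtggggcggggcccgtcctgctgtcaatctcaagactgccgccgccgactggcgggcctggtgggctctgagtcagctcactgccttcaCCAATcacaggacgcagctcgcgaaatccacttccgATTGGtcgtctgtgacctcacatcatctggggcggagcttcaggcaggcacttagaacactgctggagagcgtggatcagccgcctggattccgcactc
These capitals again mark CCAAT or ATTGG.

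Motifs were searched on both strands, and a gene with several windows was counted if any of them held a match. The NF-Y box CCAAT, whose factor is known to work beside SREBP2, was in the windows of 21 of the 25 genes (84.0%) and of 16 of 17 enzymes (94.1%), against 43.0% of the 10751 tested genes with a window. The Sp1 box GGGCGG was in 22 of 25 (88.0%), against 65.6%. The sterol element TCACNCCAC was in 1 of 25 (4.0%), against 1.43%. The core letters of AhR sites, GCGTG, were in 17 of 25 (68.0%), against 53.6%, and the E-box CACGTG was in 5 of 25 (20.0%), against 11.3%. The motifs can overlap one another, and a match is a description of the letters only.

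The 6 genes of SREBP2 and its processing had a median log2 fold change of 0.35 with 0 called and 2 at an unadjusted p under 0.05 in the edgeR fit (15.3% of all genes). Srebf2 itself had 20.9, 19.7 and 30.9 CPM in Ahr-null males, against 18, 20.6 and 15.3 CPM in control males. Females had 21.8, 21.4 and 24.0 CPM in Ahr-null females, against 16.7, 14 and 12.6 CPM in control females. The females did not overlap, while control male 2 lay above Ahr-null male 2. Averaging the sexes gave a difference of 0.52 ± 0.17 log2 units (SE; adjusted p = 0.174, edgeR), and the difference ranged from 0.41 to 0.58 over the omissions of single livers.

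Insig2, the INSIG gene that does not depend on SREBP2 in the way Insig1 does and whose liver transcript is known to fall with insulin, had 44.6, 31.2 and 72.5 CPM in Ahr-null males, against 29.1, 30.8 and 25.3 CPM in control males. Its levels in females were 52.2, 13.5 and 16.6 CPM in Ahr-null females, against 18.7, 13.1 and 21.2 CPM in control females. The males did not overlap, whereas among females Ahr-null female 1 alone stood above the controls. The averaged test gave a difference of 0.71 ± 0.33 log2 units (SE; adjusted p = 0.323, edgeR), which was 0.30 without Ahr-null female 1. Insig1, a direct SREBP2 target, had 75.2, 79.1 and 154 CPM in Ahr-null males, against 127, 98.6 and 96.1 CPM in control males, so that Ahr-null males 1 and 2 lay below all control males. It had 331, 94.1 and 76.5 CPM in Ahr-null females, against 62.7, 80.8 and 48.7 CPM in control females, where Ahr-null female 1 was by far the highest liver. Averaged over the sexes, Insig1 differed by 0.66 ± 0.35 log2 units (SE; adjusted p = 0.398, edgeR), and it was 0.19 without that liver. Scap, the escort, and Mbtps1 and Mbtps2, the proteases, had log2 fold changes of 0.17 ± 0.18, -0.11 ± 0.19 and 0.010 ± 0.18 (SE), none past the test. Without Ahr-null female 1, Mbtps1 was at 0.0070 and Mbtps2 at -0.068, on the other side of 0.

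The 5 genes of esterification and transport had a median log2 fold change of 0.032, close to the 0.037 over all genes tested, with 0 called and 0 at an unadjusted p under 0.05 in the edgeR fit (15.3% of all genes). Npc1, the lysosomal membrane protein that exports cholesterol freed from lipoproteins, had 13.1, 17.2 and 17.3 CPM in Ahr-null males, against 24.0, 44.0 and 29.7 CPM in control males. All 3 Ahr-null males lay below all 3 control males. In females it had 13.7, 20.1 and 50.9 CPM in Ahr-null females, against 22.8, 21.6 and 27.1 CPM in control females, with Ahr-null female 3 the highest liver and the groups overlapping. Averaging the sexes gave a difference of -0.39 ± 0.29 log2 units (SE; adjusted p = 0.557, edgeR), which was -0.77 without Ahr-null female 3, -0.22 without Ahr-null female 1 and -0.25 without control male 2. Npc2, the soluble partner of Npc1, which lies on chromosome 12 as does Ahr, had an averaged log2 fold change of -0.0033 ± 0.27 (SE).

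Soat1 and Soat2 encode the acyltransferases that store cholesterol as esters, Soat2 being the form of mouse hepatocytes and Soat1 that of macrophages and most other cells. Soat1 had 2.72, 3.10 and 3.51 CPM in Ahr-null males, against 2.19, 3.87 and 2.36 CPM in control males. It had 8.91, 3.37 and 2.54 CPM in Ahr-null females, against 4.07, 5.24 and 4.41 CPM in control females. Ahr-null female 1 was the highest liver, the groups overlapped in both sexes, and the test gave a difference of 0.12 ± 0.30 log2 units (SE; adjusted p = 0.899, edgeR). The sign turned without Ahr-null female 1, where the log2 fold change was -0.23. Soat2 spanned 25.1 to 109 CPM in the Ahr-null livers (median 75.9), against 65 to 83.1 CPM in the controls (median 67.8), and its lowest liver was Ahr-null female 1, at 25.1 CPM. Stard4, a cytosolic carrier of cholesterol and a known SREBP2 target, spanned 5.09 to 23.7 CPM in the Ahr-null livers (median 9.68), against 9.30 to 15.9 CPM in the controls (median 10.2). The averaged log2 fold changes of Soat2 and Stard4 were 0.032 ± 0.30 and 0.088 ± 0.34 (SE), and the sign of Stard4 turned without Ahr-null female 1 (-0.24) and without Ahr-null male 3 (-0.20).

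How the 31 genes varied from liver to liver was measured as the distance of each liver, in log2 CPM, from the mean of the control livers of its sex. The median distance over the 31 genes was 0.22, 0.067 and 1.26 in Ahr-null males 1, 2 and 3, against -0.13, 0.094 and -0.054 in control males 1, 2 and 3. It was 1.31, 0.15 and 0.39 in Ahr-null females 1, 2 and 3, against -0.063, 0.36 and -0.21 in control females 1, 2 and 3. Ahr-null male 3 and Ahr-null female 1 thus lay more than 1 log2 unit above the controls, while the other 4 Ahr-null livers lay within 0.39 of them and control female 2 was nearly as high as Ahr-null female 3. Over all genes tested the same medians lay between -0.022 and 0.026 in all 12 livers. Ahr-null male 3 held the highest level of the 12 livers for 13 of the 31 genes, where 8.03% of all genes peaked, and Ahr-null female 1 for 12 of the 31, where 27.7% of all genes peaked. Ahr-null female 3 was highest for 3 of the 31, with 10.2% of all genes.

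**Figure D3:**
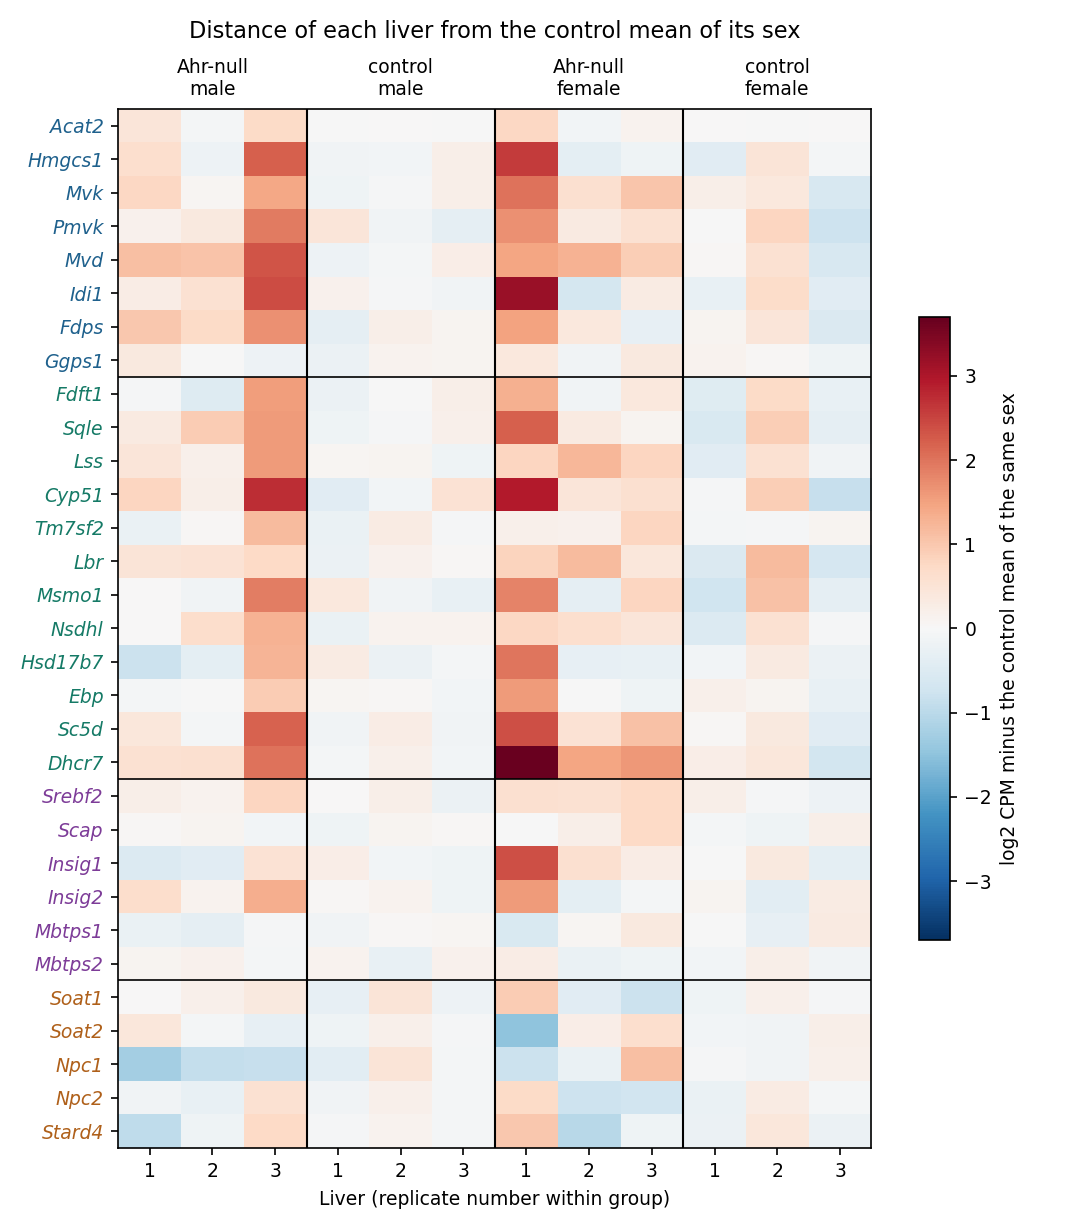
Distance of each liver from the control mean of its sex in log2 CPM, for the 31 genes by role (rows) and the 12 livers (columns, Ahr-null left of control within each sex), red above and blue below the control mean. The enzyme rows are darkest in Ahr-null male 3 and Ahr-null female 1, and the highest value is 3.66 for Dhcr7 in Ahr-null female 1.

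Counted another way, 24 of the 31 genes (77.4%) in Ahr-null male 3 and 26 (83.9%) in Ahr-null female 1 lay above every control liver of the same sex, against 29.9% and 40.0% of all genes tested in those livers. The counts were 16 (51.6%) in Ahr-null male 1 and 10 (32.3%) in Ahr-null male 2, against 27.8% and 25.8% of all genes. They were 11 (35.5%) in Ahr-null female 2 and 13 (41.9%) in Ahr-null female 3, against 31.4% and 32.8% of all genes. In Ahr-null male 2 and Ahr-null females 2 and 3 the share was thus within 10 percentage points of that of all genes.

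**Figure D4:**
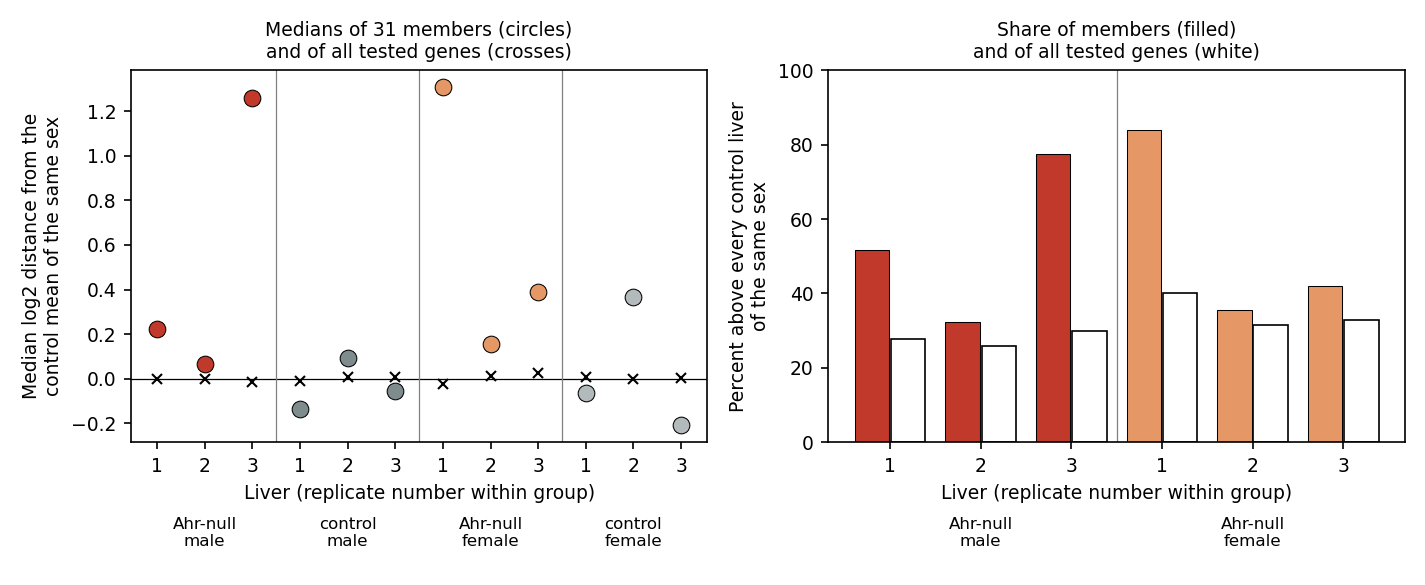
Left, the median log2 distance of the 31 genes (circles) and of all tested genes (crosses) from the control mean of the same sex in each liver; right, the percent of the 31 genes (filled bars) and of all tested genes (white bars) above every control liver of the same sex in each Ahr-null liver. Ahr-null male 3 (1.26) and Ahr-null female 1 (1.31) stand above the other livers on the left, and at 77.4% and 83.9% on the right.

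Other features also differed between the livers, not all of them in step with the pathway. A list of 10 hepatocyte genes summed to 45533 CPM in Ahr-null male 3 and 77627 CPM in Ahr-null female 1, against 22102 to 35398 CPM in the other 10 livers. In Ahr-null male 3, 4 of the 10 genes peaked, as did 8.03% of all genes. In Ahr-null female 1 it was also 4 of the 10, with 27.7% of all genes. Much of the hepatocyte sum was Alb, at 22047 CPM in Ahr-null male 3 and 55134 CPM in Ahr-null female 1. Without Alb the sum was 23486 CPM in Ahr-null male 3 and 22493 CPM in Ahr-null female 1, against 12951 to 22822 CPM in the other livers, with Ahr-null male 2 at the top of that range and above Ahr-null female 1. By group the hepatocyte sum was 26054 to 45533 CPM in Ahr-null males, 27779 to 77627 CPM in Ahr-null females, 22102 to 29237 CPM in control males and 22626 to 26935 CPM in control females. The mitochondrial share of the counts was 30.4% in Ahr-null male 3, the lowest of all, and 39.8% in Ahr-null female 1, though it was also low, at 38.9%, in Ahr-null male 1. In Ahr-null female 1, 27 of 30 neural, 7 of 10 stellate cell and 3 of 7 cholangiocyte genes were at their highest. So were 5 of 9 lipid-associated macrophage, 4 of 7 lymphocyte and 5 of 10 Kupffer cell genes, and 27.7% of all genes. The stellate cell sum was 1211 CPM, against 269 to 600.0 CPM in the other livers. The neural and cholangiocyte sums were also highest in this liver. By sum, the lipid-associated macrophage list was highest in control female 2 and the Kupffer cell list in control female 3. The lymphocyte sum was highest in Ahr-null female 2. The 8 genes of sinusoidal endothelium had their lowest sum in Ahr-null female 1, at 120 CPM, against 148 to 215 CPM elsewhere. Of these 8 genes, 2 were at their highest there. Red blood cell genes summed to 640.4 CPM in Ahr-null male 3, against 56.2 to 294 CPM elsewhere. The part of these features in the levels of the pathway was not tested. Genes of the adrenal cortex, 7 in number, summed to 0.551 to 6.75 CPM, with Cyp11b1 and Cyp11b2 at 0 counts in every liver.

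Leaving out each liver in turn showed the weight of single animals. The median log2 fold change of the 31 genes was 0.65 with all livers, 0.41 without Ahr-null male 3 and 0.48 without Ahr-null female 1, and 0.78 at the most over the 12 omissions. With either of these livers left out alone, every enzyme of synthesis kept a positive value, and they were not left out together. In the remaining Ahr-null livers the median distance of the enzymes from the control mean of their sex was smaller. It was 0.38 and 0.13 in Ahr-null males 1 and 2, and 0.33 and 0.44 in Ahr-null females 2 and 3. Hsd17b7 and Ebp lay below the control mean in each of these. Mvk, Pmvk, Mvd, Sqle, Lss, Cyp51, Lbr, Nsdhl and Dhcr7 lay above it in each. The rest of the enzymes were above it in some of these livers and below it in others. The largest drops came without Ahr-null female 1, to 0.65 for Idi1 and 0.48 for Hmgcs1, while Mvd was 1.37 without Ahr-null female 1 and 1.14 without Ahr-null male 3. Without both libraries rich in neural transcripts the median was 0.44.

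**Figure D5:**
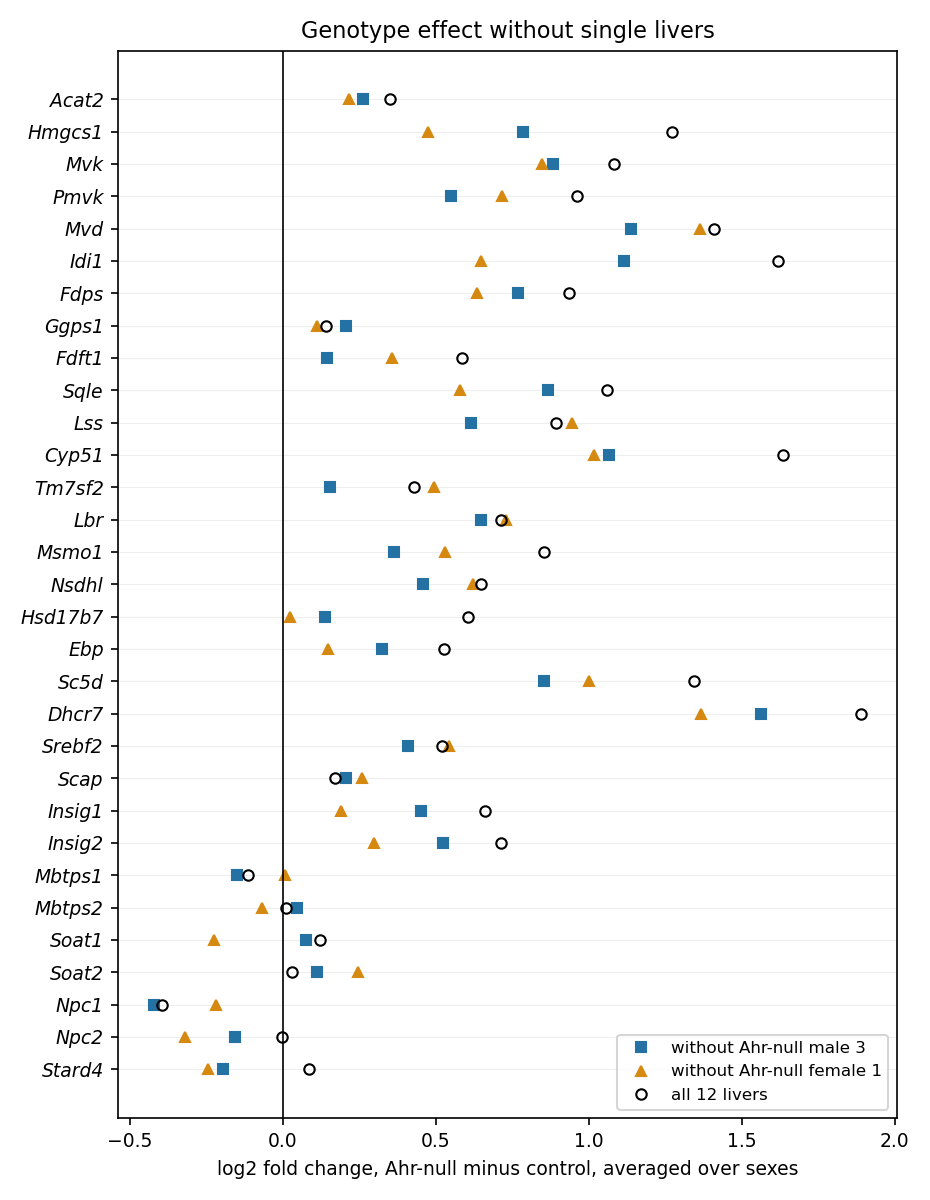
Averaged log2 fold change (Ahr-null minus control) of each of the 31 genes without Ahr-null male 3 (squares), without Ahr-null female 1 (triangles) and with all 12 livers (open circles). All enzymes from Acat2 to Dhcr7 stay right of 0 with either liver left out alone, and Hmgcs1 and Idi1 move furthest left without Ahr-null female 1 (0.48 and 0.65).

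The sexes were then tested apart, with 3 livers a side. In males the median log2 fold change of the 31 genes was 0.62, and edgeR called 0 of them, with 5 at an unadjusted p under 0.05 (16.1%, against 5.81% of all genes), of which Npc1 was lower, and 1 (Mvd) called by DESeq2; edgeR called 0.0367% and DESeq2 0.782% of all genes. In females the median was 0.66, and edgeR called 0, with 7 at an unadjusted p under 0.05 (22.6%, against 14.4% of all genes) and 1 (Dhcr7) called by DESeq2 and by edgeR scaled by library size alone; these called 0.161%, 3.62% and 0.858% of all genes. Limma-voom called 0 of the 31 in either sex. All 3 Ahr-null males lay above all 3 control males for 8 genes (25.8%; 6.55% of all genes), namely Mvd, Idi1, Fdps, Sqle, Lss, Lbr, Dhcr7 and Insig2, and below them for Npc1 alone (7.34% of all genes lay below). All 3 Ahr-null females lay above all 3 control females for 7 genes (22.6%; 9.22% of all genes), namely Mvk, Mvd, Lss, Tm7sf2, Sc5d, Dhcr7 and Srebf2, and below them for 0 (9.86% of all genes). Mvd, Lss and Dhcr7 were above in both sexes (9.68%; 1.28% of all genes), and 0 genes were below in both (1.62% of all genes).

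The genotype differences of males and females were set against each other as an interaction. The widest gaps were for Insig1, at -0.059 ± 0.50 in males and 1.38 ± 0.51 in females, for Dhcr7, at 1.22 ± 0.57 in males and 2.56 ± 0.60 in females, and for Npc1, at -1.04 ± 0.41 in males and 0.25 ± 0.41 in females (log2 fold change ± SE). None passed the test: edgeR called 0 of the 31 in the interaction (0.00733% of all genes), with 1, Npc1, at an unadjusted p under 0.05 (4.6% of all genes), and DESeq2 and limma-voom also called 0. Males and females of the same genotype did not differ past the test either. Male minus female, edgeR called 0 of the 31 among Ahr-null livers (0.279% of all genes; 1 at an unadjusted p under 0.05, as were 8.68% of all genes) and 0 among controls (0.352% of all genes; 0 at an unadjusted p under 0.05, as were 5.79% of all genes), and DESeq2 and limma-voom called 0 in both. Without Ahr-null female 1, Insig2 was called higher in Ahr-null males than in Ahr-null females, at a log2 difference of 1.73 (adjusted p = 0.0238, edgeR, with 0.649% of all genes called), against 0.86 (adjusted p = 0.655, edgeR) with it.

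Levels of different genes were compared per kilobase of exon. Among the enzymes, Ebp, Hmgcs1, Acat2 and Sc5d were the most abundant transcripts. Hmgcs1 had 45.2 ± 38.9 CPM per kb in Ahr-null males and 19.3 ± 2.7 in control males, and 48.6 ± 57.0 in Ahr-null females and 19.5 ± 6.23 in control females (SD, n = 3 each). By mean, Soat2 and Insig1 were the most abundant of the 31 in the controls of each sex, though Insig1 in control females lay within the SD of Hmgcs1 and Ebp. Soat2 had 32.7 ± 4.10 CPM per kb in control males and 32.3 ± 4.51 in control females, and Insig1 had 34.6 ± 5.48 in control males and 20.7 ± 5.21 in control females, so their order differed between the sexes and in males lay within the SD. Soat1, with 0.287 ± 0.0947 in control males, was the lowest but for Lbr. Insig1 had 33.2 ± 14.4 CPM per kb in Ahr-null males, above Insig2, with 14.2 ± 6.07 in Ahr-null males and 8.18 ± 0.816 in control males. Exons shared with a neighbour make the levels of Mbtps2 (28.4% of exon bases, with Yy2), Fdps (26.7%, with Gm43738), Tm7sf2 (12.1%, with Vps51), and Scap and Hmgcs1 (antisense or unclassified transcripts) less certain.

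Other genes that SREBP2 is known to regulate, or that work beside the enzymes, formed a list of 18 tested genes. Their median log2 fold change was 0.29, with 10 positive and 8 negative (lowest -0.73). EdgeR called 1 higher and 0 lower, where 0.528% of all genes were called each way. At an unadjusted p under 0.05 in the same fit there were 9 (50%), against 15.3% of all genes. Rdh11, a retinol dehydrogenase, and Erg28, known in yeast as a scaffold of the demethylating enzymes, were picked from this list after their values were seen. Rdh11 had 5.44, 5.12 and 20.2 CPM in Ahr-null males, against 3.87, 4.18 and 4.52 CPM in control males, and 19.3, 4.57 and 4.36 CPM in Ahr-null females, against 4.28, 5.78 and 3.16 CPM in control females. Erg28 had 6.15, 8.69 and 19.1 CPM in Ahr-null males, against 6.99, 6.2 and 7.01 CPM in control males, and 25.6, 7.52 and 12.3 CPM in Ahr-null females, against 6.76, 7.42 and 6.16 CPM in control females. Of the 18 genes, 7 peaked in Ahr-null male 3 (8.03% of all genes) and 5 in Ahr-null female 1 (27.7% of all genes). Rdh11 and Erg28 were among these, which was known when they were picked. Their averaged values were 1.19 ± 0.44 and 0.95 ± 0.32 on the log2 scale (SE; adjusted p = 0.217 and 0.183, edgeR). The genes of fatty acid synthesis, which follow SREBP1 more than SREBP2, had a median of -0.13 over 18 tested. EdgeR called 0 of them higher and 2 lower (0.528% of all genes each way). At an unadjusted p under 0.05 in that fit there were 6 (33.3%, against 15.3% of all genes). Thrsp, a lipogenic nuclear protein, fell, with a difference of -2.50 ± 0.43 log2 units (SE; adjusted p = 0.0186, edgeR), and so did Lpin1, a phosphatidate phosphatase, with a difference of -1.19 ± 0.25 log2 units (SE; adjusted p = 0.0461, edgeR). Thrsp had 102, 171 and 66.6 CPM in Ahr-null males, against 514, 595 and 251 CPM in control males. Females had 112, 68.7 and 41.3 CPM in Ahr-null females, against 653, 943 and 184 CPM in control females.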

How the data were processed

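Whole-liver RNA was sequenced, and the authors deposited whole-number counts per gene for the 12 livers and a table of variance-stabilised log2 values made with DESeq2 (1.28.1, per the submitters' processing notes). The same notes name GRCm38 as the genome and STAR 2.7.8, Trim Galore 0.6.5 and FastQC 0.11.8 as tools; the read counter, strand setting and annotation were not given in the sources used here. Counts were fitted with edgeR 4.0.16 (R 4.3.3): filterByExpr, TMM scaling, 4 group means and robust quasi-likelihood F tests (two-sided) over 13641 genes with 8 residual degrees of freedom, calls at a Benjamini-Hochberg adjusted p under 0.05. The averaged effect weights the sexes equally. CPM are TMM-scaled, and distances use log2 CPM with a prior count of 2. Per-kilobase levels use merged exons of GENCODE M21, matched for 27275 genes. The alternatives included DESeq2 1.42.0 and limma 3.58.1. Totals of 9794253 to 18924880 counts limit precision for low genes such as Lbr. Replicates of every group differed beyond counting noise, and replicate numbers are names only. The members and gene lists were chosen with earlier results of these data known. Values liver by liver are given for members called in any comparison, or called without the libraries rich in neural transcripts, and for the 2 of each role with the smallest averaged p. Hmgcs1, Idi1, Sc5d, Cyp51 and Insig1 were added outside that rule, after their values were seen. Some genes of the pathway are not reported here.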

Additional observations from a re-analysis of the deposited data

How the results depend on the processing

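Over 23 alternatives, 645 of 713 averaged values of the 31 genes kept their direction and side of the threshold, 9 lost a call, 26 gained it and 33 changed sign; Mvd kept its call under every alternative other than 9 of the 12 omissions of single livers. Members called in the averaged effect numbered 1, against 16 with library size alone (which moved the median of all genes by 0.53), 6 with DESeq2, 2 with TMM without mitochondrial genes, 2 with at least 1 CPM in 3 libraries, 2 without robust fitting, 2 without the libraries rich in neural transcripts, and 0 to 2 over single omissions. The median member value was 1.19 with library size alone and 0.41 to 0.78 over omissions. All genes called in the averaged effect numbered 144, against 1053 with library size alone, 664 with DESeq2, 432 without the neural libraries and 6 to 663 over omissions. In males they numbered 5, against 12 with library size alone, 106 with DESeq2, 3 with limma-voom, 9 with limma on deposited values, 27 without the neural libraries, 25 with males alone and 0 to 57 over omissions, and 1 member was called by DESeq2. In females they numbered 22, against 117 with library size alone, 491 with DESeq2, 35 with limma-voom, 46 with limma on deposited values, 235 without the neural libraries, 3 with females alone and 3 to 153 over omissions; library size alone and DESeq2 each called 1 member. The interaction called 1 gene, against 3 with library size alone, 20 with DESeq2, 4 with limma on deposited values, 4 without the neural libraries and 0 to 2 over omissions. Male minus female among Ahr-null livers called 0 members, 1 without the neural libraries and 0 to 1 over omissions. Signs changed for 7 genes, none of them called. With library size alone Mbtps1 was at 0.36, Npc1 at 0.048 and Npc2 at 0.54. Npc2 was at 0.012 with RLE scaling, 0.0089 with TMM without mitochondrial genes, 0.0037 with at least 1 CPM in 3 libraries and 0.012 with DESeq2. Soat2 and Stard4 were at -0.12 and -0.10 with limma-voom and -0.085 and -0.056 with limma on deposited values. Without the neural libraries Mbtps2, Soat1 and Stard4 were at -0.033, -0.29 and -0.25. Over omissions Mbtps1 ranged -0.22 to 0.0070, Mbtps2 -0.068 to 0.068, Soat1 -0.23 to 0.28, Soat2 -0.18 to 0.25, Npc2 -0.32 to 0.12 and Stard4 -0.24 to 0.26. Apart from the smaller sample sets, the cause was not tested. No paired analysis was possible because replicate numbers follow accession order and pair no samples.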

Other observations

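Neighbouring branches of sterol metabolism had medians nearer 0. Oxysterol handling and the genes of LXR, the nuclear receptor that oxysterols activate, gave 13 tested genes with a median log2 fold change of -0.15. At an unadjusted p under 0.05 in the edgeR fit there were 2 (15.4%, against 15.3% of all genes). EdgeR called 0 higher and 1 lower (0.528% of all genes each way). That gene was Cyp46a1, which makes the oxysterol by which cholesterol leaves neurons in the brain, with a difference of -2.31 ± 0.26 log2 units (SE; adjusted p = 0.00578, edgeR). It had 1.62, 2.40 and 1.07 CPM in Ahr-null males, against 8.0, 12.6 and 14.8 CPM in control males. Females had 5.24, 4.69 and 5.80 CPM in Ahr-null females, against 24.4, 11 and 18.6 CPM in control females. Every Ahr-null liver lay below every control of its sex. Srebf1, the SREBP gene that LXR activates, had a log2 fold change of -0.33 ± 0.27 (SE; adjusted p = 0.603, edgeR).

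Sterol sensing and degradation in the endoplasmic reticulum gave 14 tested genes with a median of 0.19, 0 called by edgeR and 3 at an unadjusted p under 0.05, a threshold that 15.3% of all genes met. Rnf145 and Syvn1, ubiquitin ligases of that membrane, had 0.67 ± 0.19 and 0.70 ± 0.23 (SE; adjusted p = 0.116 and 0.175, edgeR). Of the 14 genes, 9 were highest in Ahr-null female 1, as were 27.7% of all genes. The non-sterol isoprenoid branch gave 10 tested genes with a median of 0.0088 and 0 called by edgeR. Of these, 2 were at an unadjusted p under 0.05 (15.3% of all genes), and they went opposite ways. Dhdds, an enzyme of dolichol synthesis, had a difference of 0.63 ± 0.17 log2 units (SE, adjusted p = 0.0980, edgeR). Pggt1b had a difference of -0.58 ± 0.22 log2 units (SE, adjusted p = 0.228, edgeR). Lysosomal lipid genes gave 8 tested genes with a median of 0.093, 0 called by edgeR and 0 at an unadjusted p under 0.05.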
